A study of Mus musculus with 56 samples.

Results

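This account follows 10 genes of the fast-fibre contractile machinery, 10 of the 15539 genes in the deposited count table of mouse gastrocnemius muscle. They were taken by name: the fast myosin heavy chains Myh4, Myh1 and Myh2, the fast regulatory light chain Mylpf, the fast troponin subunits Tnnt3, Tnni2 and Tnnc2, the Z-line protein Actn3, and the calcium-handling genes Pvalb and Atp2a1. All 10 passed the filter on low counts. The 56 C57Bl/6 mice formed 8 groups of 7, each a combination of sex, genotype label and wheel, and gene-level read counts were measured in each mouse. Running mice had a wheel that turned and the other mice a locked wheel, and all ate chow. The labels give wheel access from 10 to 20 weeks of age in 1 field, and mice of 5 months that ran for 10 weeks in another. The knockout lacks HuR, an RNA-binding protein encoded by Elavl1, in skeletal muscle, with Cre recombinase driven by the promoter of the fast myosin light chain gene Myl1. Controls were littermates with the floxed Elavl1 alleles and no Cre, so that floxed alleles were common to every group.

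Adult limb fibres are classed by their myosin heavy chain. Myh4 encodes the heavy chain of type IIb fibres, Myh1 that of type IIx and Myh2 that of type IIa, while Myh7 marks slow type I fibres. The 3 fast chains differ in shortening speed, and in rodents endurance activity is known for shifting expression from IIb toward IIx and IIa. Troponin T, I and C place calcium control on the thin filament, parvalbumin binds calcium in the cytosol, and the pump encoded by Atp2a1 returns it to the sarcoplasmic reticulum. In whole muscle, fewer fibres of a type and less of the RNA per fibre cannot be told apart.

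The libraries held 6639782 to 21633091 counts. In these counts Elavl1 did not separate the genotype labels. It was 42 to 61.9 CPM (median 54) in male controls with locked wheels and 45.3 to 58.6 CPM (median 50.5) in males labelled HuR m-/- with locked wheels, in counts per 1000000 TMM-scaled counts (CPM). In running males Elavl1 was higher under the HuR m-/- label (log2 fold change 0.44 ± 0.11 (SE), adjusted p = 0.0242), so the knockout groups are called here by their label. The study itself reports, by qPCR, less Elavl1 mRNA in the gastrocnemius of HuR m-/- mice than of controls. A gene-level count also takes reads outside the deleted part of a gene. Markers of skeletal muscle were abundant in every mouse, with Ckm at 7732 CPM or more and Acta1 at 19050.3 CPM or more. The balance of long and short genes moved with sex and wheel. The mean log2 CPM of the 1560 longest genes minus that of the 1561 shortest, members left out, was -0.53 to -0.26 (median -0.43) in control females with locked wheels and -0.28 to -0.13 (median -0.19) in running control females. In locked females labelled HuR m-/- it was -0.54 to -0.17 (median -0.41), and in the 5 remaining groups the medians lay between -0.23 and -0.17. Gm42418 and mitochondrial genes took group medians of 7.22 to 12.9% and 23.1 to 29.7% of counts. The part of the long and short balance in the differences below was not tested beyond a fit with this balance as a covariate, an alternative chosen after the values were seen. Where balance and group moved together, as by wheel in females and by sex in locked mice, that fit cannot tell them apart.

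Myh2, Myh1 and Myh4 lie in this order on the plus strand of chromosome 11 within 89420 bases (GRCm38, GENCODE M21). Myh2 spans chr11:67171027-67197517, Myh1 chr11:67200052-67224575 and Myh4 chr11:67238029-67260446. The coding sequences are 90.22% identical between Myh4 and Myh1, 88.19% between Myh4 and Myh2, and 91.09% between Myh1 and Myh2. The likeness bears on how reads are split among the 3 genes, so the stretches that show its ends are printed here. Of the 3591 aligned 60-base coding stretches, 187 are identical in the 3 genes. One of them reads the same in exon 13 of Myh4 (chr11:67245718-67245777), exon 14 of Myh1 (chr11:67206531-67206590) and exon 14 of Myh2 (chr11:67179553-67179612):
Myh4, Myh1 and Myh2: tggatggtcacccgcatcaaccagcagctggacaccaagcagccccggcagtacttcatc
The most different stretch has 24 differing positions, in capitals below. It lies in exon 28 of Myh4 (chr11:67254458-67254517), exon 29 of Myh1 (chr11:67217464-67217523) and exon 29 of Myh2 (chr11:67191348-67191407), all on the plus strand:
Myh4: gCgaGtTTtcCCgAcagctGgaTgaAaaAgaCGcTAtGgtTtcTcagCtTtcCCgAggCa
Myh1: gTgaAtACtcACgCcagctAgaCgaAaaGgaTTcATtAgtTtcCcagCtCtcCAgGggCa
Myh2: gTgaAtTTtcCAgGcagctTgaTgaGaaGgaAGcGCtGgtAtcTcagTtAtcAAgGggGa
Of all 50-base windows of the transcripts, 18.9% of Myh4, 26.72% of Myh1 and 26.9% of Myh2 occur also in another gene, in each case another sarcomeric myosin. In the last 500 bases these shares are 7.54%, 15.96% and 15.96%. A read of that length from such a window cannot be placed by sequence alone, and how the counting treated it is not given in the sources used here. Of the other 7 members, Actn3 shared 0.07% of its windows with Actn2, Atp2a1 shared 0.12% with Atp2a3, and the rest shared none.

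The windows printed below for the 3 neighbours hold different motifs. They are the 250 bases before each RefSeq start (GRCm38.p6). Whether these letters bear on the levels below was not tested. Capitals mark, on either strand, the TATA box letters TATAAA, the E-box with the letters CANNTG, and the CArG box.
Myh4, chr11:67237562-67237811: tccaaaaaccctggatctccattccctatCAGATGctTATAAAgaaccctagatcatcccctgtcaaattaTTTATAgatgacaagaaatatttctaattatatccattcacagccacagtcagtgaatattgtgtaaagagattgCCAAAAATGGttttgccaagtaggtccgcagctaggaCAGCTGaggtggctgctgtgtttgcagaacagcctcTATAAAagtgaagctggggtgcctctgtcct
Myh1, chr11:67199852-67200101: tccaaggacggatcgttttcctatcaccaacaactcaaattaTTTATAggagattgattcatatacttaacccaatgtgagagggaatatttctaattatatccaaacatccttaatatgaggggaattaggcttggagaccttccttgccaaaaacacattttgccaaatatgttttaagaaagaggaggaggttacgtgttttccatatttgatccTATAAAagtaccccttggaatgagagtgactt
Myh2, chr11:67170777-67171026: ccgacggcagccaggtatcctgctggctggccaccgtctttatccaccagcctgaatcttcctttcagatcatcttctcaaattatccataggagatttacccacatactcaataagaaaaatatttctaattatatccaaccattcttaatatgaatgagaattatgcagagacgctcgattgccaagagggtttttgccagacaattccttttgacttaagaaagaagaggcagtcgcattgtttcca
The Myh4 window held TATAAA at -31 and at 2 places further up, 2 E-boxes at -221 and -67, and a CArG box at -104, counted from the start. The Myh1 window held TATAAA at -32 and -208, and the Myh2 window held none of the 3 motifs. The windows are not aligned to each other. The letters GGAAA, on either strand, lay at -234 and -48 in Myh1, at -6 in Myh2 and nowhere in the Myh4 window. Beside the GENCODE spans, the Myh1 window ends inside its gene and the Myh4 window ends before its gene. A missing motif is thus missing from the printed letters only. Among 32851 promoters of the same length, 12.4% hold TATAAA, 66.2% an E-box, 1.47% a CArG box and 55.6% GGAAA. A match describes letters, not a bound site.

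Per kilobase of exons, the small thin-filament and light-chain transcripts stood highest. Over the 56 mice the median was 11720 normalised CPM per kilobase for Tnnc2, 11562 for Mylpf, 9170 for Tnnt3, 8538 for Pvalb and 5767 for Tnni2. Myh4 followed with 4262 CPM per kilobase, then Atp2a1 with 2575, Actn3 with 768, Myh1 with 238.2 and Myh2 with 224. The order was not resolved everywhere: Tnnc2 exceeded Mylpf in 32 of 56 mice, Mylpf exceeded Tnnt3 in 52, Tnnt3 exceeded Pvalb in 38, Tnni2 exceeded Myh4 in 53, and Myh1 exceeded Myh2 in 34. From Pvalb to Tnni2, and from Myh4 down to Myh1, each step held in 56 of 56 mice. If reads came only from transcript ends, as the library kit named in the labels would give, division by length would understate the long genes.

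**Figure D1:**
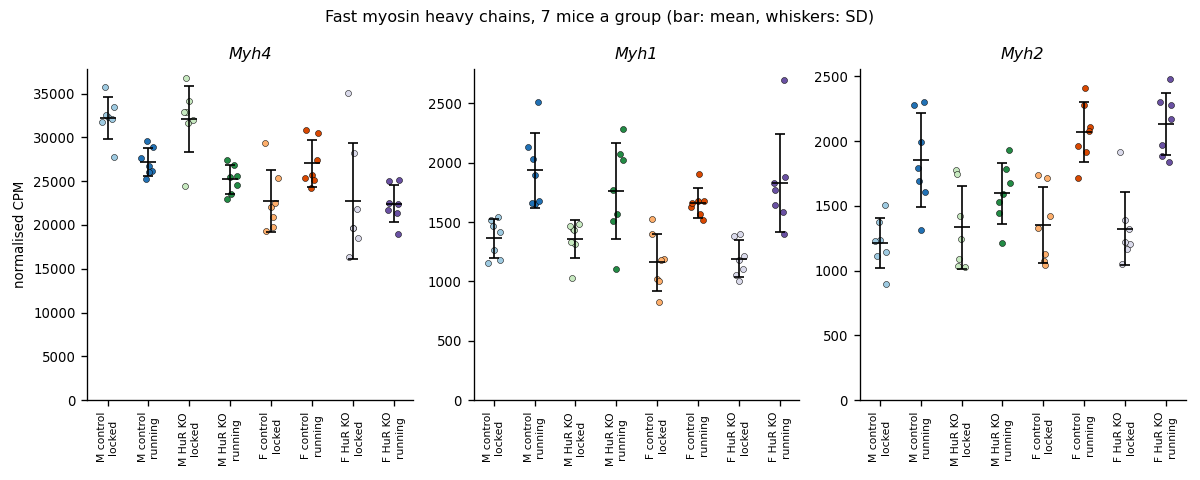
Normalised CPM of Myh4, Myh1 and Myh2 in each mouse for the 8 groups (M male, F female, KO the HuR m-/- label), with the group mean as a bar and the SD as whiskers. Myh1 and Myh2 means are higher with a running wheel in each pair, passing the test in 3 of 4, and the lowest Myh4 values are in females.

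The wheel comparison asks what 10 weeks of voluntary running did to these transcripts. In male controls, Myh1 and Myh2 rose while Actn3 and Atp2a1 fell, 4 of 10 members against 3.24% of all 14321 genes tested. Myh1 was 1152 to 1546 CPM (median 1415) with locked and 1649 to 2513 CPM (median 1892) with running wheels. All 7 running mice lay above the highest locked mouse, a rise of 41.3% (log2 fold change 0.50 ± 0.12 (SE), adjusted p = 0.0129). Myh2 rose by 51.8%, with 895 to 1506 CPM (median 1229) in locked and 1315 to 2304 CPM (median 1790.0) in running mice (log2 fold change 0.60 ± 0.13 (SE), adjusted p = 0.0049). Of the running mice, 6 were above all locked mice. Myh4, by contrast, was 27802 to 35699.7 CPM (median 32309) with locked and 25193 to 29570.3 CPM (median 26773) with running wheels, which did not pass the test (log2 fold change -0.24 ± 0.10 (SE), adjusted p = 0.163). For Actn3, which cross-links actin at the Z line of fast fibres, locked mice had 2270.5 to 3016 CPM (median 2627) and running mice 1462 to 2604 CPM (median 1882). It fell by 0.48 on the log2 scale (adjusted p = 0.00322), with 6 running mice below every locked mouse. Atp2a1 was 8189.7 to 10839 CPM (median 9883) in locked and 5249.5 to 9786 CPM (median 7988) in running mice (log2 fold change -0.34 ± 0.10 (SE), adjusted p = 0.0352). Its call held in 7 of the 14 fits that left out 1 mouse (adjusted p 0.00909 to 0.13), with the weakest value without running mouse 13. Mylpf, Tnnt3, Tnni2, Tnnc2 and Pvalb had log2 fold changes between -0.15 and -0.11, none past the threshold. The median over the 10 members was -0.14 and that over all genes 0.019. Myh4 passed under 2 of 11 other settings, a fit of only the groups compared and sample quality weights (lowest adjusted p = 0.0138). The make-up of the libraries moved between the same groups: the transcript Gm42418 took 9.41 to 11.4% (median 10.4%) of counts in locked and 6.51 to 9.78% (median 7.22%) in running male controls, and mitochondrial genes took 25.6 to 27.8% (median 26.5%) and 26.2 to 30.6% (median 29.7%). With both left out, the same 4 members were called.

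In males labelled HuR m-/-, limma called 0 of 10 members, in a comparison that called 0.0419% of all genes. At an unadjusted p under 0.05 there were 7 members, beside 1821 of all 14321 genes. EdgeR called 0, and DESeq2 called 1, Myh4. Myh4 was 24418 to 36792 CPM (median 32884) with locked and 22946 to 27464 CPM (median 25499.9) with running wheels (log2 fold change -0.34 ± 0.10 (SE), adjusted p = 0.156). Locked mouse 24, the lowest of its group, lay within the running range, and the other 6 locked mice lay above every running mouse. Myh1 was 1028 to 1483 CPM (median 1432) with locked and 1103 to 2285 CPM (median 1773) with running wheels (log2 fold change 0.35 ± 0.12 (SE), adjusted p = 0.235). Myh2 was 1032 to 1776 CPM (median 1244) and 1210.0 to 1932 CPM (median 1593) (log2 fold change 0.28 ± 0.13 (SE), adjusted p = 0.355). For both genes the groups overlapped. The other members had log2 fold changes from -0.34 for Actn3 to -0.049 for Mylpf.

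In female controls 4 of 10 members changed, against 8.74% of all genes. The median over the members was 0.12, and over all genes 0.0067. Myh1 rose by 44.9%, with 825 to 1523 CPM (median 1184) in locked and 1518 to 1906 CPM (median 1657) in running mice (log2 fold change 0.53 ± 0.12 (SE), adjusted p = 0.00383). Myh2 rose by 55.1%, with 1043 to 1741 CPM (median 1332) in locked and 1719 to 2413 CPM (median 2078) in running mice (log2 fold change 0.63 ± 0.13 (SE), adjusted p = 0.00127). For each of the 2 genes, 6 running mice exceeded all locked mice. Atp2a1 rose, with 7047 to 8975 CPM (median 7469) in locked and 8616 to 10966 CPM (median 9182) in running mice (log2 fold change 0.29 ± 0.10 (SE), adjusted p = 0.0449). Pvalb fell, with 8885 to 10727 CPM (median 10187) in locked and 7599 to 9614 CPM (median 8101) in running mice (log2 fold change -0.28 ± 0.08 (SE), adjusted p = 0.0213). Myh4 was 19264 to 29336 CPM (median 22052) with locked and 24250.2 to 30786 CPM (median 25682) with running wheels (log2 fold change 0.26 ± 0.10 (SE), adjusted p = 0.0878). The Atp2a1 call held in 1 of the 14 fits that left out 1 mouse (adjusted p 0.0304 to 0.135), weakest without running mouse 1. The Pvalb call was lost without locked mouse 16 (adjusted p = 0.0506) or running mouse 27 (adjusted p = 0.0530), leaving 2 members called in each case. Without locked mouse 18, Myh4 passed (adjusted p = 0.0297) and 6 members were called. Mylpf passed without locked mouse 15, 18 or 32 or running mouse 25 (adjusted p 0.0218 to 0.0467). With the balance of long and short genes as a covariate, 0 of 10 members and 6 of all genes were called: Myh1 was then 0.29 (adjusted p = 0.479) and Myh2 0.40 (adjusted p = 0.339), and Myh4 changed sign to -0.076 (adjusted p = 0.823). The balance itself barely overlapped between these groups, at -0.53 to -0.26 in locked and -0.28 to -0.13 in running mice. That fit can therefore hardly separate wheel from balance, and the lost calls do not decide between them.

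In females labelled HuR m-/-, 6 of 10 members changed, against 3.85% of all genes. The median over the members was -0.14, and over all genes 0.015. Myh1 rose by 51.5%, with 1003 to 1402 CPM (median 1184) in locked and 1401 to 2697 CPM (median 1774) in running mice (log2 fold change 0.60 ± 0.12 (SE), adjusted p = 0.0018). Myh2 rose by 62.6%, with 1051 to 1914 CPM (median 1224) in locked and 1839 to 2479 CPM (median 2170.1) in running mice (log2 fold change 0.70 ± 0.13 (SE), adjusted p = 0.000454). Running mouse 21 had the highest Myh1 of its group. Mylpf, whose product binds the neck of the fast heavy chains, fell, with 12692 to 15704 CPM (median 13414) in locked and 10208 to 11902 CPM (median 10565) in running mice, every running mouse below every locked mouse (log2 fold change -0.38 ± 0.08 (SE), adjusted p = 0.00302). Tnni2, the inhibitory fast troponin, fell, with 7056 to 9397 CPM (median 8618) in locked and 6352 to 7389 CPM (median 7054) in running mice (log2 fold change -0.27 ± 0.074 (SE), adjusted p = 0.0254). Tnnt3, which ties troponin to tropomyosin, fell (log2 fold change -0.22 ± 0.067 (SE), adjusted p = 0.0408), as did Pvalb (log2 fold change -0.26 ± 0.079 (SE), adjusted p = 0.0447). Myh4 showed no such difference, at 16362 to 35089 CPM (median 19667) and 18989.9 to 25134 CPM (median 22389.9) (log2 fold change 0.018 ± 0.10 (SE), adjusted p = 0.957). The Myh1, Myh2 and Mylpf calls held in 14 of 14 fits that left out 1 mouse, those of Tnni2 in 11, Tnnt3 in 6 and Pvalb in 4. The count fell to 3 without locked mouse 14 or without running mouse 2. With the long and short balance as a covariate, 1 member, Tnnt3, was called, at -0.29 (adjusted p = 0.0351), and Myh1 was 0.38 (adjusted p = 0.135). The share of all genes called in that fit is not set beside the count of 1 member.

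**Figure D2:**
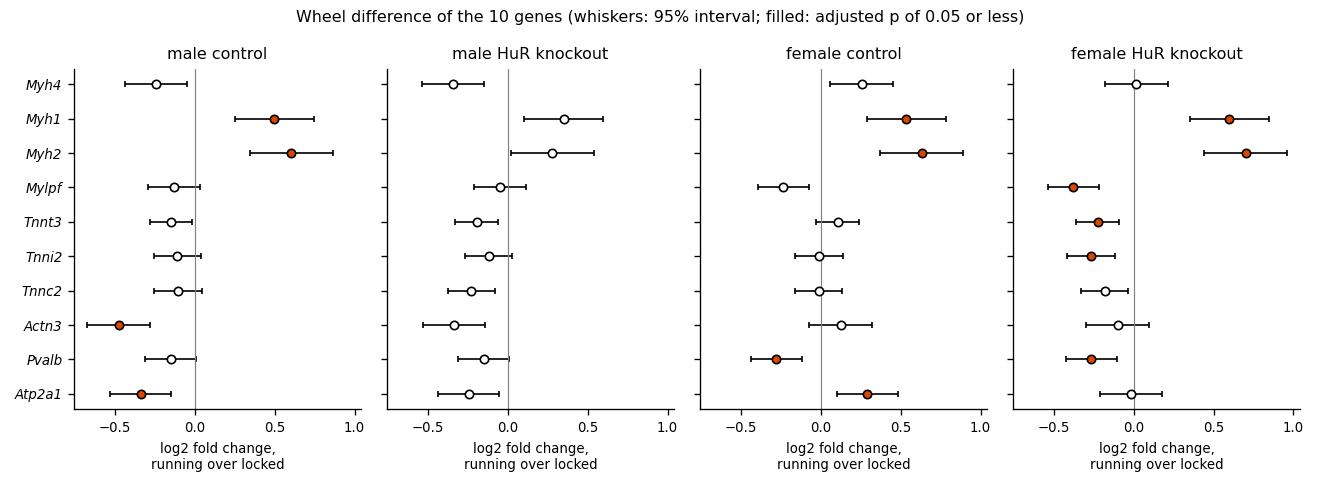
Log2 fold change of each of the 10 genes, running over locked, from the limma fit in 4 strata, with 95% intervals as whiskers and filled points where the adjusted p was 0.05 or less. Myh1 and Myh2 lie right of 0 in each panel, whereas Myh4, Actn3 and Atp2a1 lie on different sides in control males and control females.

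Whether the wheel change depended on genotype or on sex was tested as an interaction. For wheel by genotype limma called 0 of 10 members in males, against 0.0349% of all genes, and 0 in females, against 0% of all genes. At an unadjusted p under 0.05 there were 0 members in males and 3 in females, given without the share of all genes at that threshold. EdgeR called 0 in both sexes, and DESeq2 called 0 in males and 1, Tnnt3, in females. For Tnnt3 in females the difference of the wheel changes was -0.33 in log2 (adjusted p = 0.242). The wheel change of Myh2 differed between male genotypes by -0.32 (95% interval -0.69 to 0.044), so the genotypes are not shown to differ or to act alike. For wheel by sex in controls, 3 of 10 members were called against 8.74% of all genes. The wheel change was higher in females than in males by 0.50 in log2 for Myh4 (adjusted p = 0.0146), by 0.60 for Actn3 (adjusted p = 0.00343) and by 0.63 for Atp2a1 (adjusted p = 0.0019). The SEs were 0.14. These 3 calls held in 28 of 28 fits that left out 1 mouse. With the long and short balance as a covariate none of the 3 was called: the differences were 0.12 (adjusted p = 0.729), 0.48 (adjusted p = 0.123) and 0.39 (adjusted p = 0.186). For Myh1 and Myh2 the sexes differed by 0.036 and 0.031, with SEs of 0.17 and 0.18. In mice labelled HuR m-/-, wheel by sex gave 0 called members by limma, against 1.35% of all genes. There were 3 at an unadjusted p under 0.05, again given without the share of all genes, and edgeR and DESeq2 each called 0. Without locked female 34, Myh4 was called (adjusted p = 0.0232).

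The ratios among the myosin genes within a mouse need no scaling between libraries. Myh4 fell relative to both neighbours with running in male controls and in females labelled HuR m-/-, and relative to Myh1 in males labelled HuR m-/-. In male controls the Myh4 to Myh1 ratio of counts was 19.6 to 28.5 (median 23.5) with locked and 10.4 to 17.2 (median 14.6) with running wheels. The change was -0.74 ± 0.12 (SE) in log2, exact permutation p = 0.000583, adjusted p = 0.0042, with no overlap. The Myh4 to Myh2 ratio was 21.3 to 32.1 (median 26.1) in locked and 11.3 to 20.4 (median 14.1) in running mice, also without overlap (-0.85 ± 0.15 (SE) in log2, exact permutation p = 0.000583, adjusted p = 0.0042). The value of 0.000583 is the smallest p that 7 against 7 mice can give. In males labelled HuR m-/- the Myh4 to Myh1 ratio was 18.4 to 35.8 (median 22.5) in locked and 10.7 to 23.1 (median 13) in running mice (-0.69 ± 0.18 (SE) in log2, exact permutation p = 0.00583, adjusted p = 0.0191), with 6 of 7 running mice below every locked mouse. The Myh4 to Myh2 change there, -0.62 ± 0.20 (SE) in log2, exact permutation p = 0.0169, adjusted p = 0.0507, missed the threshold. It passed without locked mouse 15 (adjusted p = 0.0402), locked mouse 24 (adjusted p = 0.0131) or running mouse 2 (adjusted p = 0.0332). In female controls neither ratio passed. Myh4 to Myh1 was 13.8 to 24 (median 20.9) in locked and 13.5 to 18.6 (median 16.1) in running mice (-0.28 ± 0.12 (SE) in log2, exact permutation p = 0.0338, adjusted p = 0.076), and passed without locked mouse 12 (adjusted p = 0.00599). Myh4 to Myh2 was 13.1 to 20.6 (median 17.8) in locked and 10.6 to 17.9 (median 13.1) in running mice (-0.38 ± 0.13 (SE) in log2, exact permutation p = 0.0186, adjusted p = 0.0516), and passed without locked mouse 12 (adjusted p = 0.0387), locked mouse 32 (adjusted p = 0.0248) or running mouse 28 (adjusted p = 0.0210). In females labelled HuR m-/- both fell without overlap of the groups. For Myh4 to Myh1 the groups all but touched, with a lowest locked ratio of 15.2637 and a highest running ratio of 15.2624. Myh4 to Myh1 was 15.3 to 25.4 (median 19.6) in locked and 8.3 to 15.3 (median 13.3) in running mice (-0.58 ± 0.14 (SE) in log2, exact permutation p = 0.000583, adjusted p = 0.0042), and Myh4 to Myh2 was 14.1 to 24.2 (median 16) in locked and 8.75 to 13.3 (median 11) in running mice (-0.68 ± 0.13 (SE) in log2, exact permutation p = 0.000583, adjusted p = 0.0042).

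The Myh1 to Myh2 ratio moved little with the wheel. Its changes in log2 were -0.10 in male controls, 0.073 in males labelled HuR m-/-, -0.10 in female controls and -0.10 in females labelled HuR m-/-, with SEs of 0.089 to 0.14. None passed the exact test. It did differ by sex. Among running controls it was 0.927 to 1.25 (median 1.04) in males and 0.731 to 0.964 (median 0.795) in females (-0.38 ± 0.084 (SE) in log2, exact permutation p = 0.00233, adjusted p = 0.012). It was also lower in females among locked controls (-0.39 ± 0.13 (SE) in log2, exact permutation p = 0.00583, adjusted p = 0.0191) and running mice labelled HuR m-/- (-0.36 ± 0.10 (SE) in log2, exact permutation p = 0.00524, adjusted p = 0.0191). The Myh4 to Myh2 ratio was lower in females among locked controls (-0.66 ± 0.12 (SE) in log2, exact permutation p = 0.000583, adjusted p = 0.0042) and running mice labelled HuR m-/- (-0.59 ± 0.13 (SE) in log2, exact permutation p = 0.00117, adjusted p = 0.00699). Of the 12 genotype comparisons of ratios, 1 passed: in running females Myh4 to Myh1 was lower under the HuR m-/- label (-0.38 ± 0.13 (SE) in log2, exact permutation p = 0.00466, adjusted p = 0.0191). Near the threshold, single mice decided several ratios by sex among locked mice. Among locked mice labelled HuR m-/-, Myh4 to Myh2 passed without female 13 (adjusted p = 0.0455) or male 24 (adjusted p = 0.0157), and Myh4 to Myh1 passed without female 34 (adjusted p = 0.0210) or male 24 (adjusted p = 0.0462). Among locked controls Myh4 to Myh1 passed without male 19 (adjusted p = 0.0495). In running females the Myh4 to Myh2 difference by label passed without labelled mouse 7 (adjusted p = 0.0385). None of the 12 interactions passed a permutation test of residuals. The smallest adjusted p, 0.0762, was for the wheel change of Myh4 to Myh1 by sex in controls, -0.28 in females and -0.74 in males.

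**Figure D3:**
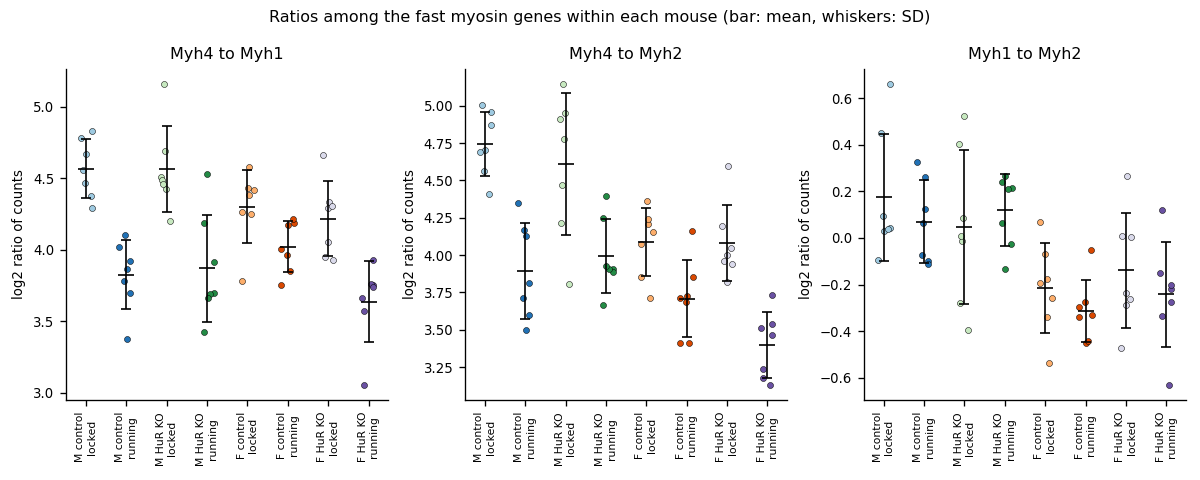
Log2 ratio of counts of Myh4 to Myh1, Myh4 to Myh2 and Myh1 to Myh2 in each mouse by group, with the group mean as a bar and the SD as whiskers. Running and locked mice do not overlap for either Myh4 ratio in male controls and in females labelled HuR m-/-.

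As a percent of the summed Myh4, Myh1, Myh2 and Myh7 counts, Myh4 made up most of the myosin in every mouse. Its share was 92.5% ± 0.785 (SD, n = 7) in locked and 87.6% ± 2.04 (SD, n = 7) in running male controls (exact permutation p = 0.000583, adjusted p = 0.0035). In females labelled HuR m-/- it was 89.3% ± 1.43 (SD, n = 7) and 84.6% ± 2.1 (SD, n = 7) (exact permutation p = 0.000583, adjusted p = 0.0035), the running group holding the lowest mean of the 8. On this scale the falls in males labelled HuR m-/- (adjusted p = 0.0165) and in female controls (adjusted p = 0.0455) passed as well. Running raised the Myh2 share in each of the 4 strata, for example from 5.34% ± 0.788 (SD, n = 7) to 8.08% ± 1.07 (SD, n = 7) in females labelled HuR m-/- (exact permutation p = 0.000583, adjusted p = 0.0035). The Myh1 share rose in 3, all but female controls (adjusted p = 0.0970). In running females the label went with a lower Myh4 share, 84.6% ± 2.1 (SD, n = 7) against 87.5% ± 1.63 (SD, n = 7) (exact permutation p = 0.0122, adjusted p = 0.0309), and a higher Myh1 share (exact permutation p = 0.00466, adjusted p = 0.016). By sex, the Myh4 share was lower in females in locked controls and in both comparisons of labelled mice (adjusted p 0.0035 to 0.0389). Myh7 stayed under 1% of the sum, and none of its wheel changes passed. Its share was higher under the HuR m-/- label in locked females, 0.481% ± 0.136 (SD, n = 7) against 0.291% ± 0.0349 (SD, n = 7) (exact permutation p = 0.00233, adjusted p = 0.00932), and in running females (exact permutation p = 0.00524, adjusted p = 0.0165). In males the difference by label did not pass with locked (exact permutation p = 0.0519, adjusted p = 0.0858) or with running wheels (exact permutation p = 0.0321, adjusted p = 0.0615).

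The genotype comparison sets mice labelled HuR m-/- against controls of the same sex and wheel. Limma called 0 of 10 members in each of the 4 strata, where it called 1.15% of all genes in locked males, 2.63% in running males, 0.384% in locked females and 0% in running females. These comparisons share their groups with the wheel comparisons above. The medians over the members were 0.031, -0.066, 0.0074 and -0.17, beside medians over all genes of 0.0069, -0.0020, -0.0068 and 0.0070. Members at an unadjusted p under 0.05 numbered 0, 2, 0 and 5 in the same order, beside 2386, 2223, 2043 and 1807 of all 14321 genes. EdgeR called 0 in each, and DESeq2 called 0 in the first 3 and 1, Tnnt3, in running females. In running females Tnnt3 was 13244 to 16456 CPM (median 14432) in controls and 11436 to 13543 CPM (median 12203) in mice labelled HuR m-/- (log2 fold change -0.23 ± 0.067 (SE), adjusted p = 0.152). Tnnc2, the calcium-binding fast troponin, was 8398 to 9687 CPM (median 9383) and 7540.1 to 8238 CPM (median 8092) (log2 fold change -0.21 ± 0.074 (SE), adjusted p = 0.209). Every labelled mouse lay below every control for Tnnc2, yet the difference did not pass across all genes. In running males Tnnc2 was 8381 to 11822 CPM (median 10275) in controls and 7097 to 10811 CPM (median 8489) under the label (log2 fold change -0.23 ± 0.074 (SE), adjusted p = 0.0788). It passed without control mouse 26 (adjusted p = 0.0296), labelled mouse 1 (adjusted p = 0.0359) or labelled mouse 2 (adjusted p = 0.0416). Myh4 in locked males differed by -0.012 in log2, with a 95% interval of -0.21 to 0.18. Myl1, the gene whose promoter drives the Cre, is itself a fast-fibre light chain and spread widely under the label: 2319.7 to 13731 CPM (median 6417) in locked males against 8834 to 14049 CPM (median 11261) in their controls (log2 fold change -0.77 ± 0.22 (SE), adjusted p = 0.0652). Its median was also lower under the label in running males (5776 against 11145 CPM), locked females (5475 against 9679 CPM) and running females (5021 against 9467 CPM). The ranges overlapped in each stratum, and none of these differences passed.

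The sex comparison gave lower levels of most, not all, of the 10 genes in locked females. Among locked controls, 6 of 10 members were called lower in females and 0 higher, against 21.5% of all genes called in either direction. There 3 of the 10 had log2 fold changes above 0, up to 0.20, none past the threshold. Mylpf was called higher in females in 5 of 12 other settings. Myh4 was 27802 to 35699.7 CPM (median 32309) in males and 19264 to 29336 CPM (median 22052) in females, with 6 females below every male (log2 fold change -0.51 ± 0.10 (SE), adjusted p = 6.69e-05). Tnni2 was 8937 to 11444 CPM (median 10383) and 6998 to 8509 CPM (median 8249), without overlap (log2 fold change -0.38 ± 0.074 (SE), adjusted p = 8.93e-05). The other 4 were Tnnt3 (-0.31), Tnnc2 (-0.25), Actn3 (-0.27) and Atp2a1 (-0.34) on the log2 scale. The Actn3 call held in 2 of the 14 fits that left out 1 mouse (adjusted p 0.0259 to 0.105), weakest without male 20. The median over the members was -0.26, and over all genes 0.0073. In the same comparison females had more of 7 of 10 adipocyte, 5 of 6 erythroid, 4 of 5 leukocyte and 6 of 6 fibroblast markers and less of 4 of 6 general muscle markers (Ckm, Des, Ttn and Neb). The summed muscle markers were 67498 to 81731 CPM in males and 47761 to 66912 CPM in females, and the summed fibroblast markers 1182 to 2163 CPM and 2578 to 5183 CPM. Of 10 liver markers 2 were higher in females, and with liver markers as a covariate 4 members were called, Myh4, Tnnt3, Tnni2 and Atp2a1. The part of the other tissues was not tested. Among locked mice labelled HuR m-/-, 5 of 10 were lower in females, against 19.3% of all genes. Myh4 was 24418 to 36792 CPM (median 32884) in males and 16362 to 35089 CPM (median 19667) in females (log2 fold change -0.53 ± 0.10 (SE), adjusted p = 5.03e-05). Female 34, with 35089 CPM, was the highest of its group. Beside these, 7 of 10 adipocyte, 3 of 6 erythroid, 4 of 5 leukocyte and 6 of 6 fibroblast markers were higher in females, and 1 adipocyte, 5 of 10 liver and 4 of 6 muscle markers were lower. Tnnt3, Tnni2, Actn3 and Atp2a1 were the other calls, and that of Tnni2 held in 5 of the 14 fits that left out 1 mouse (adjusted p 0.00859 to 0.114), weakest without female 30. Tnnc2 passed there without female 34 (adjusted p = 0.0178) or male 24 (adjusted p = 0.0233), and among locked controls Mylpf was higher in females without female 15, 18 or 32 or male 17 (adjusted p 0.0232 to 0.0494). Counts of members under a covariate are given here without the share of all genes, so they do not single out the members. With the long and short balance as a covariate, 3 members were called among locked controls and 1 among locked mice labelled HuR m-/-. Tnni2 was called in both, at -0.47 (adjusted p = 0.000132) and -0.28 (adjusted p = 0.0195). Myh4 was then -0.20 (adjusted p = 0.171) in locked controls and -0.27 (adjusted p = 0.052) in locked mice labelled HuR m-/-.

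Among running mice the direction was mixed. In running controls 3 of 10 members were called against 7.65% of all genes. Tnni2 was lower in females (log2 fold change -0.28 ± 0.074 (SE), adjusted p = 0.00856), whereas Actn3 (log2 fold change 0.34 ± 0.10 (SE), adjusted p = 0.0213) and Atp2a1 (log2 fold change 0.29 ± 0.10 (SE), adjusted p = 0.0464) were higher. Actn3 was 1462 to 2604 CPM (median 1882) in males and 2144 to 2948 CPM (median 2298) in females, so the groups overlapped. The Atp2a1 call held in 6 of the 14 fits that left out 1 mouse (adjusted p 0.0143 to 0.175), weakest without male 13. The Actn3 call held in 10 (adjusted p 0.00338 to 0.0804). Without female 1, female 28, male 13 or male 25, Tnni2 was the 1 member called. In running mice labelled HuR m-/- there were 3 calls against 5.57% of all genes. Myh2 was higher in females, 1839 to 2479 CPM (median 2170.1) against 1210.0 to 1932 CPM (median 1593) (log2 fold change 0.42 ± 0.13 (SE), adjusted p = 0.0361). Tnnt3 (log2 fold change -0.25 ± 0.067 (SE), adjusted p = 0.0128) and Tnni2 (log2 fold change -0.35 ± 0.074 (SE), adjusted p = 0.00125) were lower. The Myh2 call held in 7 of the 14 fits that left out 1 mouse (adjusted p 0.0238 to 0.121), and without male 1 only Tnni2 was called. Tnni2 was lower in females in each of the 4 sex comparisons, and among running mice labelled HuR m-/- every female lay below every male.

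**Figure D4:**
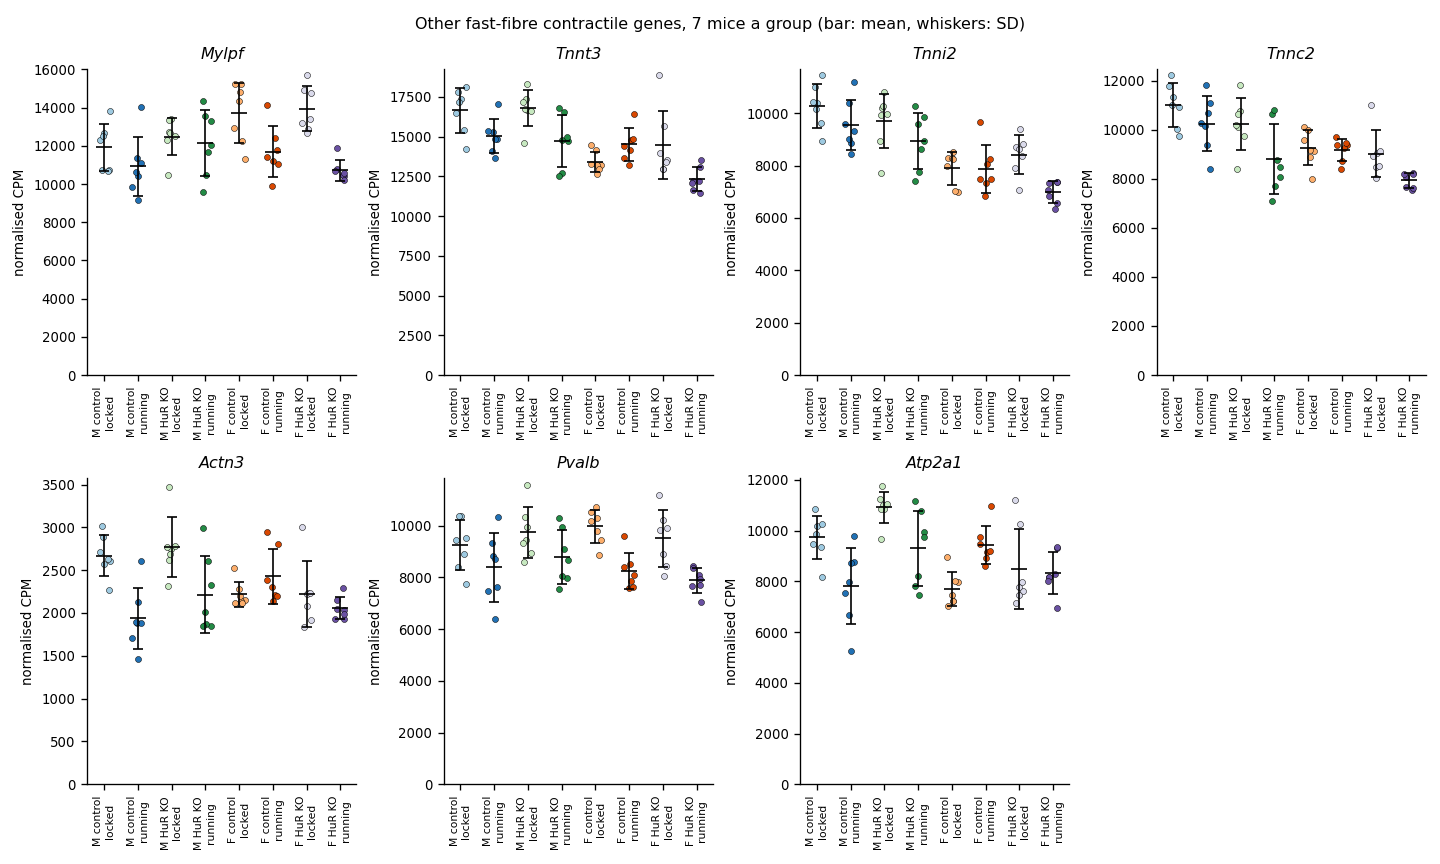
Normalised CPM of the 7 remaining genes in each mouse by group, axes from 0, with the group mean as a bar and the SD as whiskers. Tnni2 is lower in females in each pair of groups, and Actn3 is lower with running in male controls.

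Over the 56 mice, members of different roles kept different company, given as descriptions with no test. In normalised expression Myh4 rose and fell with Tnnt3 (r = 0.82), Atp2a1 (r = 0.70), Tnnc2 (r = 0.68) and Actn3 (r = 0.67), and hardly with Myh1 (r = 0.15) or Myh2 (r = -0.095). Myh1 and Myh2 went together (r = 0.73), and Pvalb went with Mylpf (r = 0.74). The 3 genes of 6251 most like Myh4 were Cmya5 (r = 0.94), Myom1 (r = 0.93) and Qser1 (r = 0.90). For Myh1 they were Smtnl1 (r = 0.77), Mb (r = 0.76) and Myom3 (r = 0.73), for Myh2 Ldhb (r = 0.88), Smtnl1 (r = 0.86) and Idh2 (r = 0.78), and for Pvalb Mylpf, Rps14 (r = 0.71) and Sar1b (r = 0.69). The mice share group, depth and library composition in these values. Against the long and short balance, r over the 56 mice was 0.58 for Myh4, 0.58 for Myh1, 0.41 for Myh2, 0.48 for Atp2a1, -0.66 for Mylpf and -0.48 for Pvalb. After group means were subtracted it was 0.62 for Myh4 and -0.52 for Mylpf.

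**Figure D5:**
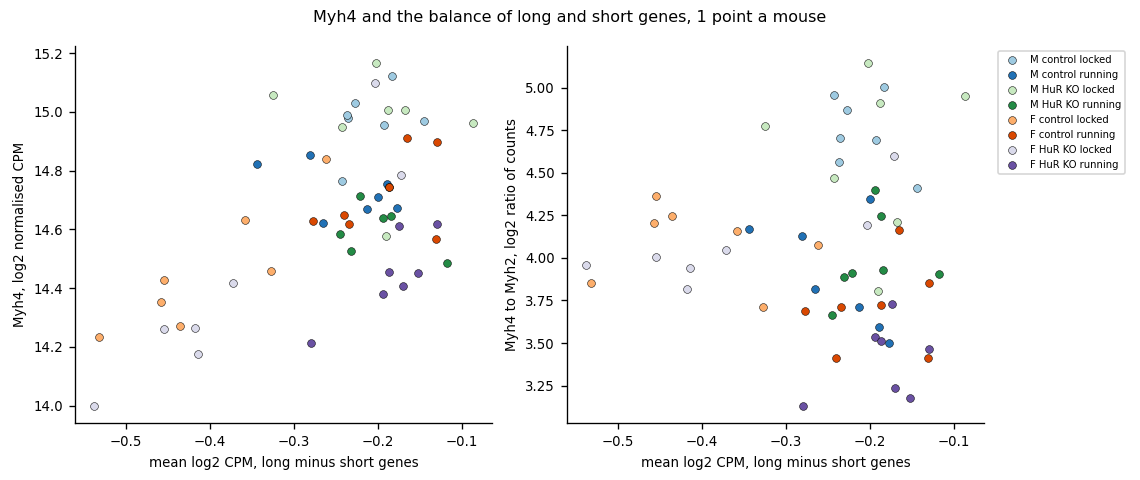
Each point is a mouse, coloured by group (M male, F female, KO the HuR m-/- label), with the mean log2 CPM of long minus short genes on the horizontal axis. On the left is log2 normalised CPM of Myh4 (r = 0.58 over the 56 mice), on the right the log2 Myh4 to Myh2 ratio of counts; locked females fill the left end of the horizontal axis.

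Lists outside the 10 members, also chosen with earlier results known, give the setting. The list of other fast-fibre genes is not particular to fast fibres, since it also holds Acta1, a general muscle marker above. Of its 11 tested genes, running lowered 1 in male controls, Tpm1, a tropomyosin (log2 fold change -0.21 ± 0.062 (SE), adjusted p = 0.0452). In female controls it raised 2, the calcium release channel gene Ryr1 (log2 fold change 0.68 ± 0.12 (SE), adjusted p = 0.000218) and Cacna1s, its voltage sensor (log2 fold change 0.31 ± 0.094 (SE), adjusted p = 0.0282), and in females labelled HuR m-/- it lowered 2, Myoz1 (log2 fold change -0.32 ± 0.071 (SE), adjusted p = 0.00405) and Tpm1 (log2 fold change -0.23 ± 0.062 (SE), adjusted p = 0.0211). None passed in males labelled HuR m-/-. In females 4 of 11 were lower than in males among locked controls, Ryr1 (-0.81), Myoz1 (-0.42), Mybpc2 (-0.43) and Tpm1 (-0.17) in log2, and 6 of 11 among locked mice labelled HuR m-/-, Ryr1 (-0.77), Casq1 (-0.40), Myoz1 (-0.30), Tpm1 (-0.26), Mybpc2 (-0.32) and Cacna1s (-0.29). Among running mice those lower in females were Myoz1 (-0.29) and Tmod4 (-0.26) in controls and Myoz1 (-0.46), Tpm1 (-0.25), Tmod4 (-0.25) and Mybpc2 (-0.31) under the label, and none was higher in any of the 4. The wheel change was higher in females than in males for Ryr1 (0.95), Cacna1s (0.51) and Acta1 (0.27) in controls and for Ryr1 (0.64) under the label.

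Of 12 slow-fibre counterparts, running raised 1 in male controls, Casq2, the slow calsequestrin (log2 fold change 0.50 ± 0.15 (SE), adjusted p = 0.0481), and none passed in the other 3 strata. Females had higher levels of 9 of 12 in locked controls, 7 in running controls, 8 in locked and 6 in running mice labelled HuR m-/-, and 0 were lower. Those with the lowest adjusted p were Casq2 (0.87), Myl2 (1.09), Tnnt1 (0.91), Tnni1 (0.72), Atp2a2 (0.51) and Tpm3 (0.66) in log2 in locked controls and Casq2 (0.65), Tnnt1 (0.88), Myh7 (0.78), Tnni1 (0.72), Tnnc1 (0.77) and Myl3 (0.46) in running controls. Under the label they were Tnni1 (0.78), Tnnt1 (0.81), Myl2 (0.73), Casq2 (0.49), Tpm3 (0.60) and Atp2a2 (0.45) in locked and Myl6b (0.99), Atp2a2 (0.48), Tnnt1 (0.69), Casq2 (0.46), Myh7 (0.63) and Myl2 (0.64) in running mice. Of 5 other sarcomeric myosins tested, Myh3 was higher in locked control females (adjusted p = 0.0401). Myh7 itself was higher in females in each, for instance in running controls (log2 fold change 0.78 ± 0.20 (SE), adjusted p = 0.00817). Under the HuR m-/- label Myl2 was higher in locked males (log2 fold change 0.91 ± 0.21 (SE), adjusted p = 0.0211) and Tnnc1 in running males (log2 fold change 0.87 ± 0.22 (SE), adjusted p = 0.0197). The Myh7 difference by genotype did not pass across all genes, at 0.70 in locked males (adjusted p = 0.0771) and 0.66 in locked females (adjusted p = 0.111).

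Of 15 fibre-type regulators tested, 2 rose with running in male controls, the cofactor gene Vgll2 (log2 fold change 0.64 ± 0.14 (SE), adjusted p = 0.00429) and the nuclear receptor gene Esrrg (log2 fold change 0.58 ± 0.17 (SE), adjusted p = 0.0421). In female controls Nfix (0.37 in log2, adjusted p = 0.00119) and Mef2c (0.25, adjusted p = 0.0446) rose, and in females labelled HuR m-/- Ppargc1a rose (0.36, adjusted p = 0.0245). By sex, 9 of 15 regulators were lower and 3 higher in females among locked controls, 8 lower and 2 higher among locked mice labelled HuR m-/-, 3 lower and 1 higher among running controls, and 1 lower and 1 higher among running mice under the label. Those with the lowest adjusted p were Tbx15 (-0.57), Eya1 (-0.59), Sox6 (-0.41), Nfix (-0.30), Mef2c (-0.32) and Esrrg (0.67) in locked controls, Nfix (-0.40), Tbx15 (-0.49), Eya1 (-0.48), Sox6 (-0.45), Ppargc1a (-0.46) and Maf (-0.40) in locked mice under the label, Tbx15 (-0.50), Eya1 (-0.40), Nfix (0.26) and Rcan1 (-0.69) in running controls and Tbx15 (-0.53) and Vgll2 (0.59) in running mice under the label. The wheel change was higher in females for Nfix (0.57) and Sox6 (0.49) in controls and Nfix (0.49) under the label, and Maf was lower under the label in locked females (log2 fold change -0.46 ± 0.10 (SE), adjusted p = 0.0183). Tbx15, a T-box factor of glycolytic fibres, was lower in females in each of the 4 sex comparisons, from -0.57 to -0.49. The transcript 2310065F04Rik was lower in females in each as well, from -1.09 to -0.71. Myhas, annotated across the Myh1 locus, fell with running in females labelled HuR m-/- (log2 fold change -0.40 ± 0.12 (SE), adjusted p = 0.049), where Myh1 rose, and was lower in females in locked controls (-0.42) and in running mice under the label (-0.54). Whether the counting used strand is not settled by the sources used here, so reads of overlapping genes may have been exchanged; the same holds for Myh2 with 9430073C21Rik, Tnnt3 with Prr33, Tnnc2 with Ube2c and Atp2a1 with Rabep2.

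Genes of other tissues moved with the same groups. In female controls running lowered 5 of 10 adipocyte, 4 of 6 erythroid, 3 of 5 leukocyte, 6 of 6 fibroblast and 2 of 10 liver markers, and raised 3 of 6 general muscle markers. For wheel by sex in controls, where Myh4, Actn3 and Atp2a1 were called, the wheel change was lower in females for 2 adipocyte, 4 erythroid, 3 leukocyte and 5 fibroblast markers and higher for 3 muscle markers. The summed levels in locked and running female controls were 3946 to 4397 CPM and 3340.4 to 3904 CPM for the adipocyte list, 1755 to 6393 CPM and 1052 to 3028 CPM for the erythroid list, 85.1 to 212 CPM and 53.5 to 124 CPM for the leukocyte list, and 2578 to 5183 CPM and 1544 to 2378 CPM for the fibroblast list. The adipocyte sum fell from a median of 4060 to 3530 CPM, while its 10 genes had a median log2 fold change of -1.16. Abundant genes that fell less thus weigh most in that sum. In males of either genotype label and in females labelled HuR m-/-, none of these 4 lists had a called wheel change. Liver markers summed to between 13.5 and 3002 CPM in single mice. The part of these tissues in the fast-fibre differences was not tested, apart from a fit with liver markers as a covariate, under which Myh1 and Myh2 kept their calls in the 3 wheel comparisons.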

How the data were processed

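RNA from the gastrocnemius was profiled in 56 mice, and the GEO labels gave each mouse to 1 of 8 groups (n = 7). The deposited values are unnormalised counts by gene from the authors (15539 genes, no gene with a total under 168, 0 columns unused), with 6639782 to 21633091 counts per mouse. Per the labels, a 3′ mRNA kit with 50 base forward reads was used, whereas the study's methods name a stranded total RNA kit. The submitters' processing notes name GRCm38 (mm10), R 4.0.3 and edgeR 3.38.4. Aligner, counter and strand setting are not given in the sources used here.

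Counts were normalised by TMM (edgeR 4.0.16), filtered by filterByExpr to 14321 genes and fitted by voom and limma 3.58.1 in R 4.3.3, with 1 mean per group. A gene was called where its p, adjusted by the Benjamini-Hochberg method across the 14321 genes of a comparison, was at most 0.05, and 16 comparisons were made. Ratios of counts within a mouse were compared by two-sided exact permutation tests over 3432 splits, adjusted over 36 tests, interactions by 100000 permutations of residuals, adjusted over 12, and percent shares by the same exact test, adjusted over their own family. DESeq2 1.42.0 and edgeR's quasi-likelihood test were alternatives. Steps were tested on simulated counts. Mice are taken as separate animals. No replicate pair agreed within sampling noise (lowest chi-square per degree of freedom 3.30).

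The members and gene lists were chosen with earlier results of these data known. All 10 members are named. From the other fibre-type lists, called genes are named (1 is not reported here), at most 6 per list and comparison by adjusted p, and marker lists of other tissues and of muscle are given mainly by counts, with Myh7, Myl1 and Elavl1 always, and for Myh4, Myh1, Myh2 and Pvalb the 3 genes most like them. Promoter windows are from RefSeq, which held 7 of the 10 members. Counting error is small beside the spread between mice at these depths.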

Additional observations from a re-analysis of the deposited data

Results flagged for a closer look

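In 13 of 104 groups of 7 values tested (10 genes and 3 ratios in 8 groups), 1 mouse stood apart from the other 6 by Dixon's rule. Chance flags about 1 in 20 groups, and the genes are not independent.

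Several of these values come from the same mouse. In locked females labelled HuR m-/-, mouse 34 had the highest Myh2 (1914 CPM, others 1051 to 1393), Tnnc2 (11023 CPM, others 8041 to 9126) and Actn3 (3006 CPM, others 1836 to 2238). In locked males labelled HuR m-/-, mouse 24 had the lowest Myh4 (24418 CPM, others 31595 to 36792) and Mylpf (10472 CPM, others 12290 to 13382), and mouse 8 had the lowest Myh1 (1028 CPM, others 1319 to 1483) and the highest Actn3 (3475 CPM, others 2309 to 2782). In running females labelled HuR m-/-, mouse 21 had the highest Myh1 (2697 CPM, others 1401 to 1883) and the lowest log2 ratio of Myh4 to Myh1 (3.05, others 3.57 to 3.93), and mouse 22 had the highest Mylpf (11902 CPM, others 10208 to 10791). In control females, running mouse 26 had the highest Myh1 (1906 CPM, others 1518 to 1676), locked mouse 18 the highest Actn3 (2522 CPM, others 2113 to 2285), and locked mouse 12 the lowest log2 ratio of Myh4 to Myh1 (3.78, others 4.25 to 4.58).

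In controls the wheel change differed between the sexes by limma's interaction test for Myh4 (0.50 higher in females, log2), Actn3 (0.60) and Atp2a1 (0.63). The balance of long and short genes moved in the same mice, and the 3 calls were not made with that balance as a covariate.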

How the results depend on the processing

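Among all members and comparisons, no called value changed sign under any alternative run. The Myh1 and Myh2 wheel calls in both control strata and in females labelled HuR m-/- held under the 11 planned settings and under each mouse left out. They were not held in either female stratum with long minus short genes as a covariate, an alternative chosen after the data were seen. In females the balance moved with the wheel, so that fit cannot tell wheel and balance apart. Under that covariate the members called were 0 of 10 for wheel in female controls (4 without it), 1 for wheel in females labelled HuR m-/- (6), 3 for sex in locked controls (6), 1 for sex in locked mice labelled HuR m-/- (5) and 0 for wheel by sex in controls (3). DESeq2 called 1 member where limma called 0 for wheel in males labelled HuR m-/-, genotype in running females and wheel by genotype in females. A fit of only the groups compared called 3 for wheel in females labelled HuR m-/-, 2 for genotype in running females and 3 for sex in locked mice labelled HuR m-/-. Sample quality weights gave 2 for genotype in running males and 1 for wheel by sex under the label. Apart from the covariate's own construction, the cause of these changes was not tested. Shares of all genes called under these settings are not set beside the counts, which therefore do not single out the members.

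As a percent share of the pair, the Myh4 to Myh2 wheel change passed in males labelled HuR m-/- (-1.87 points, adjusted p = 0.048) and in female controls (-1.57 points, adjusted p = 0.048). Without 3 locked mice labelled HuR m-/-, male 24 and females 19 and 30, which the heatmaps of the study do not show, the log2 changes were -0.75 (adjusted p = 0.013) and -0.38 (adjusted p = 0.048) for these 2, and -0.60 (adjusted p = 0.048) for sex in locked mice labelled HuR m-/-. None of the 3 mice is in the female control comparison. Its change stayed at -0.38, and only its adjusted p moved, from 0.0516, through the adjustment over all ratio tests. Without the same 3 mice, uncalled values near 0 became 0.055 for Myh4 to Myh1 by genotype in locked males, 0.0016 and 0.061 for Myh4 to Myh2 by genotype in locked males and locked females, and -0.00099 for Myh1 to Myh2 by wheel in males labelled HuR m-/-.

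Leaving out each mouse in turn, the members called ranged from 2 to 6 for wheel in female controls, 3 to 6 for wheel in females labelled HuR m-/-, 0 to 1 for genotype in running males and for wheel by sex under the label, and 1 to 3 for sex in running mice of either label. The Myh4 to Myh1 change ranged from -0.37 to -0.23 for wheel in female controls, -0.31 to -0.18 for sex in locked controls, -0.42 to -0.24 for sex in locked mice labelled HuR m-/-, -0.10 to 0.055 for genotype in locked males and -0.063 to 0.12 in running males. Myh4 to Myh2 ranged from -0.45 to -0.33 for wheel in female controls, -0.75 to -0.53 for wheel in males labelled HuR m-/-, -0.66 to -0.44 for sex in locked mice labelled HuR m-/-, and, by genotype, -0.22 to 0.0016 in locked males, -0.093 to 0.039 in locked females and -0.37 to -0.24 in running females. Myh1 to Myh2 ranged from -0.00099 to 0.15 for wheel in males labelled HuR m-/-.

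Replicate numbers are shared by some males and females, without pairing them: of 22 pairs that share a number, 12 of them with the same genotype label and wheel, 6 correlated above 0.1 (median r 0.0451) and 1 was a best match. With the replicate block the members called by sex were 1 in running controls and 0 in locked mice labelled HuR m-/-. Males and females of the latter share no number, so the block leaves that comparison little direct information and its count decides nothing. The paired ratios by sex, over 3 to 5 pairs, were -0.59 and -0.49 for Myh4 to Myh2 in locked controls and running mice labelled HuR m-/-, and -0.28, -0.26 and -0.26 for Myh1 to Myh2 in locked controls, running controls and running mice labelled HuR m-/-. With so few pairs no p could pass.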
